A study of Homo sapiens with 6 samples.

Results

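The 10 genes described here are NF-kB regulators and CXC chemokines: NFKBIA, TNFAIP3, NFKB1, NFKB2, RELB, BIRC3, IL8 (now CXCL8), CXCL1, CXCL2 and CXCL3. They were chosen by symbol, with earlier results of these data known, and are 10 of the 57905 genes in the deposited count table. All 10 had enough reads to be tested among the 16565 genes that passed the filter on low counts. The libraries came from HCT116, a human colorectal carcinoma cell line with wild-type p53, and no other line was sequenced here. Nut 0h cells received the vehicle DMSO, whereas Nut 1h and Nut 10h cells received Nutlin-3a, dissolved in DMSO, for 1 or 10 h. Nutlin-3a blocks the binding of p53 to its ubiquitin ligase HDM2 (the product of MDM2) and so raises p53. Each condition had 2 biological replicates, 6 libraries in all, and the question of each comparison was which of these genes differed between the conditions.

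NF-kB is a family of dimeric transcription factors that inhibitor proteins of the IkB family hold in the cytoplasm of unstimulated cells. Ligands such as TNF or interleukin-1 activate a kinase complex that marks IkB for destruction, and the freed dimers enter the nucleus. Several genes induced there encode the pathway's own brakes, NFKBIA and TNFAIP3 among them, and others encode chemokines that attract neutrophils through the receptors CXCR1 and CXCR2. Epithelial cells, those of the colon included, make these chemokines upon infection or injury.

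The 6 libraries held between 26068076 and 35473485 counts. MDM2 rose at both times, by 2.19 ± 0.13 (SE) on the log2 scale at Nut 1h and by 3.75 ± 0.13 at Nut 10h, and CDKN1A, the cell cycle inhibitor induced by p53, rose by 3.84 ± 0.11 at Nut 10h. All 4 epithelial markers (EPCAM, KRT8, KRT18, CDH1) were abundant, with summed normalized counts between 121200 and 155120 at Nut 0h and Nut 10h and the lowest sums, 89872 and 96928, at Nut 1h. The share of counts from the mitochondrial genome was highest at Nut 1h, 8.43% and 8.15%, against 4.99% to 7.06% in the other 4 libraries. In a fit without the mitochondrial genome genes, 3 of the 10 members were called higher and 2 lower at Nut 1h, the same counts as with these genes. Any further part of this share in the Nut 1h results was not tested. The 6 leukocyte markers summed to between 19.7 and 21.4 normalized counts at Nut 0h and Nut 1h and to 46.5 and 47.4 at Nut 10h, with PTPRC at 0 to 1.86. ITGAM alone carried this rise, and the other 5 markers together had 2.90 to 9.31 normalized counts. At Nut 1h the log2 fold change of a gene followed the GC content of its transcript (r = -0.70 across the 97.4% of tested genes with a known GC content, which are not independent replicates), whereas at Nut 10h it did not (r = -0.03). Since this trend runs between the same libraries as the comparison, it and the treatment cannot be told apart for a single gene. The Nut 1h values of the members are therefore given also from a fit with a GC-content offset, which removes from each library its smooth trend on GC content.

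The consensus decamer to which NF-kB binds (the kB site) was searched for on both strands in the 250 bases upstream of each member's start, taken from RefSeq promoters of the build GRCh38.p14, and positions are those of the exact match in GRCh37. The promoter table matched 9 of the 10 members, all but RELB. The decamer occurred in 7 of these 9 promoters, beside 9.96% of 35116 promoters of the same length. A shorter form of the site, GGNNTTNCC, was found in 15.0% of all promoters and in 8 of the 9, and overlaps with the decamer in most of them. The AP-1 site TGANTCA was found in IL8 alone, beside 6.57% of promoters, and the p53 half-site in none of the 9, beside 5.57%. NFKB2 had no match of any of the motifs in this window. Its promoter sequence, at chr10:104155212-104155511, lies inside the gene as annotated here, so bases upstream of its first annotated start were not searched. The same holds for NFKB1, whose promoter sequence is at chr4:103422841-103423140. A match is not a measured binding site. The following windows are shown because they place the shared element in members that responded differently. Each window is read 5′ to 3′ on the strand of the gene, and the capitals mark the match (the decamer, or for IL8 the short form).
NFKBIA, chr14:35874017-35874046, minus strand: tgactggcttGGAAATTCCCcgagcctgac
TNFAIP3, chr6:138188319-138188348, plus strand: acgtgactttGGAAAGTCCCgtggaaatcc
BIRC3, chr11:102188006-102188035, plus strand: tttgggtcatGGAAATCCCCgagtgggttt
NFKB1, chr4:103423032-103423061, plus strand: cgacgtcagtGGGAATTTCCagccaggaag
IL8, chr4:74606185-74606214, plus strand: tgcaaatcgtGGAATTTCCtctgacataat
CXCL1, chr4:74735021-74735050, plus strand: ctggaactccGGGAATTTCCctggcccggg
CXCL2, chr4:74964971-74965000, minus strand: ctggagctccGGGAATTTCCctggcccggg
CXCL3, chr4:74904466-74904495, minus strand: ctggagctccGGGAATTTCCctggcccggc

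The windows of CXCL1 and CXCL2 were identical at 29 of 30 bases, those of CXCL2 and CXCL3 at 29, and those of CXCL1 and CXCL3 at 28. The match began 79 bases upstream of the start in CXCL1 and CXCL3 and 78 bases upstream in CXCL2. IL8 carried the AP-1 match 137 bases and its kB match 91 bases upstream of the start. BIRC3 had its first decamer match 199 bases and a further one 135 bases upstream.

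In vehicle-treated cells the members spanned a wide range of levels. In RPKM (counts scaled by transcript length and TMM library size), NFKB2 was highest at 67.9 ± 6.96 (SD, n = 2 libraries, as for all levels given here). It was followed by NFKBIA at 26.0 ± 0.603, NFKB1 at 17.8 ± 0.153 and RELB at 10.3 ± 2.45. TNFAIP3 stood at 1.11 ± 0.196 RPKM. The lowest levels, in order, were BIRC3 at 0.520 ± 0.00728, CXCL2 at 0.516 ± 0.136, CXCL1 at 0.468 ± 0.0790, CXCL3 at 0.468 ± 0.199 and IL8 at 0.361 ± 0.0446 RPKM. From BIRC3 downwards no neighbours in this order differed beyond their spread, whereas each of the higher 5 differed from the next by more than the sum of their SDs. The 4 chemokines rested on 9 to 61 reads per library. At Nut 1h, IL8 stood at 1.13 ± 0.00609 RPKM and was then the highest of the 4 chemokines. At Nut 10h, at 0.436 ± 0.0624, its mean was again the lowest, but within the spread of CXCL2 at 0.489 ± 0.0232. NFKB2, NFKBIA, NFKB1 and RELB kept this order at all 3 times.

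After 1 h of Nutlin-3a, 3 of the 10 members rose (TNFAIP3, BIRC3 and IL8) and 2 fell (NFKB2 and RELB) by edgeR's quasi-likelihood test, called at an adjusted p of at most 0.05. Across all tested genes 66.9% were called in this comparison, 34.5% higher and 32.3% lower, so that 5 of 10 members is no larger a share than that of all genes. The median log2 fold change of the members was 0.06 and that of all tested genes 0.05. With the GC-content offset 4 members were called higher (NFKBIA, TNFAIP3, BIRC3 and IL8) and 1 lower (NFKB2), beside 48.0% of all genes called, 22.8% higher and 25.2% lower. After 10 h, BIRC3 was the only member called against Nut 0h, beside 29.0% of all tested genes, and with the offset NFKB2 was called too, beside 39.7%. In bulk libraries fewer cells that express a gene and less of its RNA per cell cannot be told apart. The plot of normalized counts by library shows these values.

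**Figure D1:**
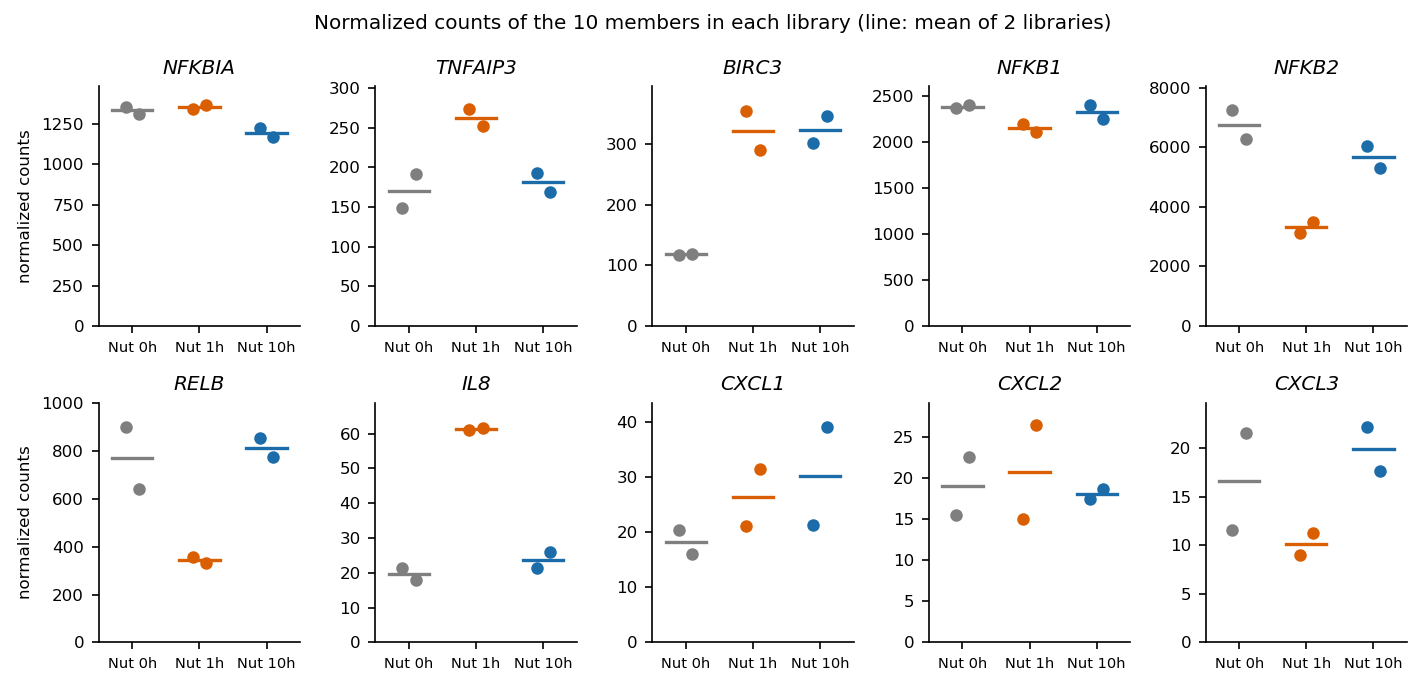
Normalized counts (counts scaled by the TMM library size, vertical axis from 0, its range differing between panels) of the 10 members in the 2 libraries (points) of Nut 0h, Nut 1h and Nut 10h, with their mean as a line. IL8 is at 61.2 and 61.7 in the Nut 1h libraries and at or below 26.1 in the other 4, BIRC3 is higher in all 4 treated libraries than at Nut 0h, and NFKB2 and RELB are lowest in the Nut 1h libraries.

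NFKBIA encodes IkB-alpha, the classical inhibitor that holds NF-kB dimers in the cytoplasm and that NF-kB itself induces. The gene (ENSG00000100906) lies on the minus strand at chr14:35870285-35873955 (GRCh37, as are all gene positions here). Its normalized counts were 1358 and 1314 at Nut 0h, 1343 and 1365.5 after 1 h and 1223 and 1168 after 10 h. The Nut 0h and Nut 1h libraries overlapped and the Nut 10h libraries were the lowest. At Nut 1h its log2 fold change was 0.02, with a 95% confidence interval from -0.18 to 0.22 (adjusted p = 0.861). At Nut 10h it was -0.16, with an interval from -0.36 to 0.04 (adjusted p = 0.221). With the GC-content offset NFKBIA was called higher at Nut 1h, by 0.21 ± 0.07 (adjusted p = 0.0196), and lower at Nut 10h than at Nut 1h, by -0.38 ± 0.07 (adjusted p = 0.000149).

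TNFAIP3 encodes the ubiquitin-editing enzyme that shuts off signaling from the TNF receptor to the IkB kinase. It lies on the plus strand at chr6:138188351-138204451 (ENSG00000118503), and its exons share 95 bases with those of WAKMAR2 on the opposite strand. Its normalized counts were 149 and 192 at Nut 0h, 274 and 252 after 1 h and 192 and 169 after 10 h. The Nut 1h libraries were the highest of the 6, and the other conditions overlapped. TNFAIP3 rose by 0.63 ± 0.16 on the log2 scale at Nut 1h (adjusted p = 0.0026) and by nearly the same amount with the GC-content offset, 0.60 ± 0.14 (adjusted p = 0.0019). At Nut 10h the log2 fold change against Nut 0h was 0.09, with an interval from -0.25 to 0.43. The direct comparison of Nut 10h with Nut 1h gave -0.54 ± 0.15 (adjusted p = 0.00645), and -0.55 ± 0.14 with the offset. Without the first Nut 1h library this value was -0.48 and no longer passed (adjusted p = 0.0636).

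BIRC3 encodes a ubiquitin ligase of the inhibitor of apoptosis family that acts with the TNF receptor complex and restrains the alternative NF-kB pathway. It lies on the plus strand at chr11:102188215-102210134 (ENSG00000023445), shares 126 exon bases with an opposite-strand long non-coding RNA, and has a GC content of 35.8%. Its normalized counts were 117 and 119 at Nut 0h, 354 and 289 after 1 h and 302 and 345 after 10 h. All 4 treated libraries lay above those of Nut 0h, and the Nut 1h and Nut 10h libraries overlapped. BIRC3 rose by 1.45 ± 0.15 on the log2 scale at Nut 1h (adjusted p = 1.99e-06) and by 1.45 ± 0.15 at Nut 10h (adjusted p = 5.28e-06). Under the GC-content offset the rise was 0.71 ± 0.13 at Nut 1h (adjusted p = 0.000228) and 1.45 ± 0.13 at Nut 10h (adjusted p = 3.49e-08). The difference between Nut 10h and Nut 1h, 0.00 with an interval from -0.29 to 0.30 without the offset, became 0.74 ± 0.11 with it (adjusted p = 2.17e-05).

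**Figure D2:**
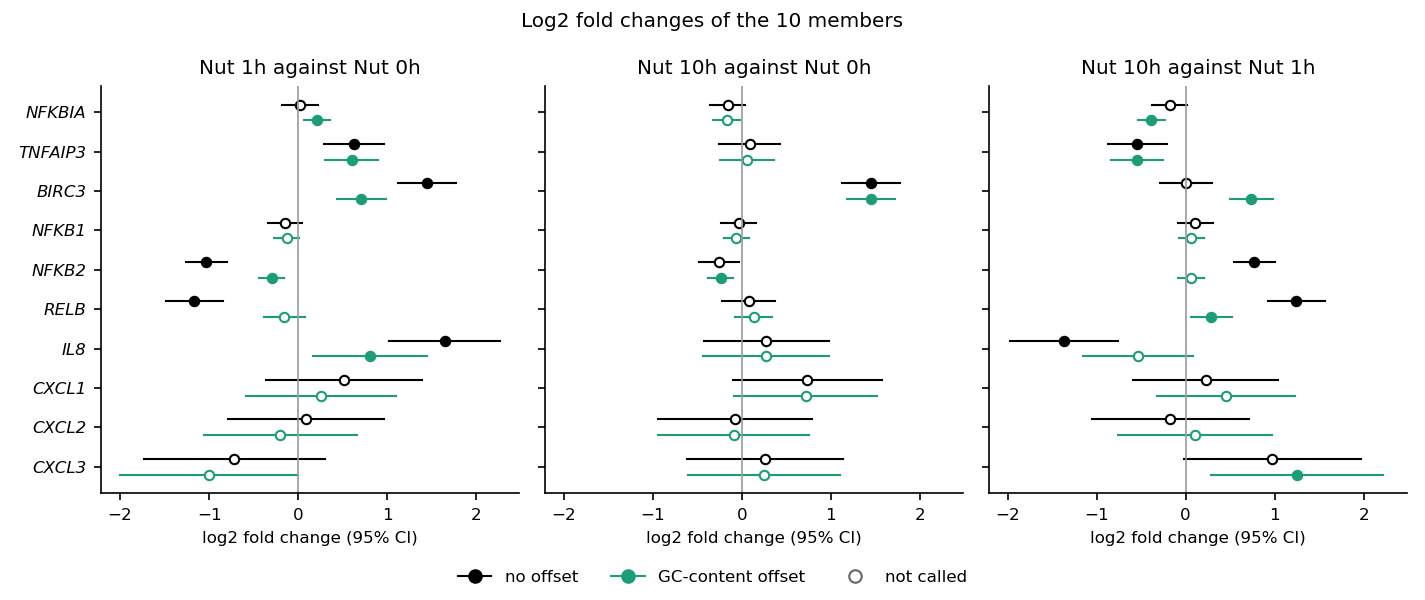
Log2 fold changes (horizontal axis) of the 10 members in the 3 comparisons, without (black) and with (green) the GC-content offset, with 95% confidence intervals and filled points where a gene was called. NFKB2, RELB, BIRC3 and IL8 move towards 0 with the offset at Nut 1h, TNFAIP3 goes from 0.63 to 0.60, and BIRC3 stays at 1.45 at Nut 10h.

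NFKB1 encodes the precursor of the NF-kB subunit that pairs with RELA in the classical pathway. The gene (ENSG00000109320) spans chr4:103422487-103538459 on the plus strand. Its normalized counts were 2367 and 2396 at Nut 0h, 2193 and 2111 after 1 h and 2399 and 2245.5 after 10 h. The Nut 1h libraries were the lowest, by a small margin, and the others overlapped. None of the 3 comparisons called NFKB1, whose values were -0.15 on the log2 scale at Nut 1h (interval from -0.34 to 0.05, adjusted p = 0.168) and -0.04 at Nut 10h (interval from -0.23 to 0.16, adjusted p = 0.801). Under the GC-content offset the Nut 1h value was -0.13 (adjusted p = 0.129).

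NFKB2 encodes the precursor of the subunit that pairs with RELB in the alternative pathway, and is itself a target of NF-kB. It lies on the plus strand at chr10:104153867-104162281 (ENSG00000077150), with a GC content of 61.2%. Its normalized counts were 7248 and 6269 at Nut 0h, 3121 and 3501 after 1 h and 6024 and 5296 after 10 h. The Nut 1h libraries were the lowest and the Nut 10h libraries lay below those of Nut 0h. NFKB2 fell by 1.03 ± 0.11 on the log2 scale at Nut 1h (adjusted p = 2e-06). The decrease was smaller but still called under the GC-content offset, at -0.30 ± 0.07 (adjusted p = 0.00137). At Nut 10h the log2 fold change was -0.26 ± 0.11 (adjusted p = 0.0878), and -0.24 ± 0.07 with the offset (adjusted p = 0.00793). Without the offset, this Nut 10h value was -0.36 when the second Nut 0h library was left out and -0.35 without the first Nut 10h library. Across the alternatives it ranged from -0.36 to -0.15. Nut 10h against Nut 1h gave 0.77 ± 0.11 (adjusted p = 2.06e-05) without the offset and 0.06 with it (interval from -0.08 to 0.20, adjusted p = 0.458).

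RELB encodes the transactivating partner of the processed NFKB2 product. It spans chr19:45504719-45541450 on the plus strand (ENSG00000104856), and its GC content of 64.9% is the highest of the members. Its normalized counts were 899.65 and 641 at Nut 0h, 355 and 329.7 after 1 h and 853 and 774 after 10 h. The Nut 1h libraries were the lowest, and the Nut 10h libraries lay between those of Nut 0h. RELB fell by 1.17 ± 0.15 on the log2 scale at Nut 1h (adjusted p = 1.03e-05), yet with the GC-content offset the value was -0.16, with an interval from -0.39 to 0.07 (adjusted p = 0.255). At Nut 10h the value was 0.08, with an interval from -0.22 to 0.38 (adjusted p = 0.714). Nut 10h against Nut 1h gave 1.25 ± 0.15 (adjusted p = 4.75e-06), and 0.29 ± 0.11 with the offset (adjusted p = 0.0293). RELA, the main classical subunit and no member, had values of -0.87 ± 0.10 at Nut 1h (adjusted p = 4.97e-06), -0.32 with the offset, and -0.09 ± 0.10 at Nut 10h.

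**Figure D3:**
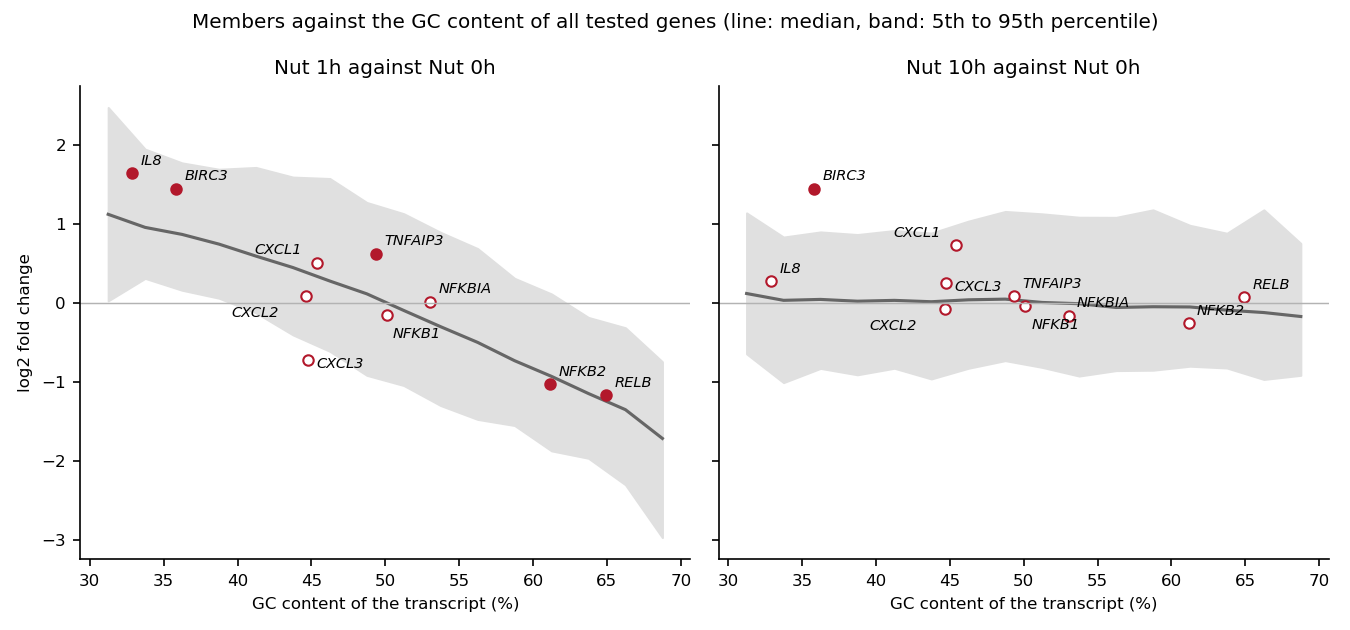
Log2 fold change (vertical axis) against the GC content of the transcript in percent (horizontal axis) for the 10 members (red, filled where called), with the median (line) and the 5th to 95th percentile (band) of all tested genes in bins of 2.5 percentage points. At Nut 1h the median falls from 1.13 in the bin of lowest to -1.71 in the bin of highest GC content and all members but CXCL3 lie within the band, whereas at Nut 10h the line is nearly flat and BIRC3 lies above the band.

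IL8 encodes the chemokine CXCL8, a strong neutrophil attractant that acts through CXCR1 and CXCR2. It lies on the plus strand at chr4:74606236-74609433 (ENSG00000169429), at one end of the chemokine cluster, and its GC content of 32.9% is the lowest of the members. Its raw counts were 22 and 19 at Nut 0h, 61 and 49 after 1 h and 22 and 28 after 10 h. Scaled for library size these were 21.3 and 17.8, then 61.2 and 61.7, then 21.3 and 26.1 normalized counts. The Nut 1h libraries stood apart from the other 4. IL8 rose by 1.65 ± 0.29 on the log2 scale at Nut 1h (adjusted p = 0.000191), with an interval from 1.02 to 2.27. The rise under the GC-content offset was 0.81 ± 0.30 (adjusted p = 0.035). At Nut 10h the value was 0.28, with an interval from -0.43 to 0.98 (adjusted p = 0.572). Nut 10h against Nut 1h gave -1.37 ± 0.28 (adjusted p = 0.000655), and -0.54 ± 0.29 with the offset, which was not called (adjusted p = 0.126).

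CXCL1, CXCL2 and CXCL3 encode closely related neutrophil attractants that act through CXCR2. They lie at chr4:74735110-74737025 on the plus strand (CXCL1, ENSG00000163739), and on the minus strand at chr4:74962757-74964913 (CXCL2, ENSG00000081041) and chr4:74902306-74904524 (CXCL3, ENSG00000163734). Their transcripts are near-identical over parts of their length: 5.33% of the stretches of 50 bases in CXCL1, 10.1% in CXCL2 and 5.26% in CXCL3 also occurred in another of these genes, against 0 of 1593 in IL8. Their counts are therefore uncertain to that extent, since the handling of reads that match several genes is not given in the sources used here.

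The normalized counts of CXCL1 were 20.3 and 16.0 at Nut 0h, 21.1 and 31.5 after 1 h and 21.3 and 39.1 after 10 h. All 4 treated libraries lay above those of Nut 0h, the first library of each time only narrowly. Log2 fold changes of 0.51 ± 0.41 at Nut 1h (adjusted p = 0.283) and 0.74 ± 0.39 at Nut 10h (adjusted p = 0.176) were not called. Under the GC-content offset the Nut 1h value was 0.26 (adjusted p = 0.622). The Nut 10h value was 1.11 without the first Nut 10h library, and across the alternatives it ranged from 0.25 to 1.11.

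CXCL2 had 15.5 and 22.5 normalized counts at Nut 0h, 15.0 and 26.4 after 1 h and 17.4 and 18.6 after 10 h. The 3 conditions overlapped, with log2 fold changes of 0.09 at Nut 1h (interval from -0.78 to 0.97) and -0.08 at Nut 10h (interval from -0.95 to 0.79). The Nut 1h value of CXCL2 changed sign under the offset, to -0.20 (interval from -1.06 to 0.66, adjusted p = 0.714). Across 20 alternatives this value kept its sign in 15 and ranged from -0.34 to 0.48. CXCL3 had 11.6 and 21.6 normalized counts at Nut 0h, 9.03 and 11.3 after 1 h and 22.2 and 17.7 after 10 h. The Nut 1h libraries of CXCL3 were the lowest, and values of -0.72 ± 0.47 on the log2 scale at Nut 1h (adjusted p = 0.196) and 0.26 ± 0.41 at Nut 10h (adjusted p = 0.681) were not called. Under the offset its Nut 1h value was -1.003 (adjusted p = 0.0905). Nut 10h against Nut 1h gave 0.98 ± 0.46 for CXCL3 (adjusted p = 0.0748), and 1.25 ± 0.46 with the GC-content offset, which was called (adjusted p = 0.0264). The interval of CXCL1 ran from -0.37 to 1.39 at Nut 1h and from -0.10 to 1.57 at Nut 10h.

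Of the 10 members, 4 were called between Nut 10h and Nut 1h, beside 67.9% of all tested genes, 34.2% higher and 33.7% lower. TNFAIP3 and IL8 were lower and NFKB2 and RELB higher at Nut 10h. Under the offset 5 were called, 3 higher (RELB, BIRC3 and CXCL3) and 2 lower (NFKBIA and TNFAIP3), beside 58.4% of all genes, 29.7% higher and 28.7% lower. TNFAIP3 and RELB are the 2 that passed in the same direction with and without the offset. Since Nut 1h and Nut 10h were each compared with the same Nut 0h libraries, this direct comparison is the test of the difference between the times.

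The genes that neighbour the member chemokines on chromosome 4 were close to absent. CXCL6, PPBP, PF4 and PF4V1 had 0 or 1 count in every library, where a count of 0 allows up to 3 counts, or 0.0846 to 0.114 CPM. CXCL5, another CXCR2 ligand, had 0 counts in the 4 libraries of Nut 0h and Nut 1h, and 11 and 5 counts at Nut 10h. Summed over the 2 libraries and set against a floor of 3 counts over the Nut 0h group, CXCL5 was at least 5.31-fold higher at Nut 10h. Its exons share 422 bases with an opposite-strand long non-coding RNA, and since the strand setting of the counts is not given in the sources used here, these reads cannot be assigned to either gene with certainty. Only 1 of the 13 other CXC chemokines passed the filter: CXCL16, a membrane-bound chemokine, which fell by 0.38 on the log2 scale at Nut 1h (adjusted p = 0.00238) and whose value under the GC-content offset was 0.09, not called. Its decrease was not called either without the first Nut 1h library (adjusted p = 0.066). Of 8 CXC receptors, CXCR2 and CXCR4 passed the filter, and both are named here after their values were seen. CXCR2 had 2 and 1 counts at Nut 0h, 1 and 1 after 1 h and 27 and 35 after 10 h. Its libraries at Nut 10h stood apart from the other 4, with a 20.6-fold ratio of the summed counts (interval of counting error only from 6.72 to 102). CXCR2 passed the filter only through the Nut 10h group where it is high, so its call is no support for the difference. Of the leukocyte markers ITGAM was also higher at Nut 10h, with PTPRC at 0 to 1.86 normalized counts, and its part in this was not tested. CXCR4 had 17 and 17 counts at Nut 0h, 4 and 2 after 1 h and 3 and 17 after 10 h, and was called lower at Nut 1h (adjusted p = 0.0139, or 0.00669 under the offset). CXCR4 passed the filter through the Nut 0h group where it is high, so that this call is a description. The call was lost without either Nut 1h library. Its log2 fold change was -2.62 without the first and -1.99 without the second, beside -2.23 with both.

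The ligands that start the pathway were barely detected, with 1 of 9 passing the filter (TNFSF13B, not called at either time). TNF, named like TNFSF13B after its values were seen, had 0 or 1 count in every library. Of 12 receptors 8 were tested. At Nut 1h, 2 were called higher and 4 lower, beside 34.5% and 32.3% of all tested genes, with a median of -0.46 beside 0.05. With the offset 1 was higher and 3 lower, beside 22.8% and 25.2%, and the median was -0.066 beside 0.00. The count of higher receptors was also 1 without the second Nut 0h library or without either Nut 1h library. LTBR, the lymphotoxin receptor that feeds the alternative pathway, fell by 1.12 on the log2 scale (by 0.36 with the offset), and CD40, a receptor of the TNF family, fell by 0.64 (by 0.58 with the offset). IL1R1, the interleukin-1 receptor, rose by 0.36, and its value was 0.048 under the offset (adjusted p = 0.771). At Nut 10h, 1 receptor was called, the sensor of double-stranded RNA TLR3, which was higher, beside 14.1% of all genes higher and 14.9% lower. With the GC-content offset 3 were higher, beside 18.8%, and 2 were with upper quartile scaling, with the length offset or without the second Nut 10h library. TLR3 had 79.2 and 69.5 normalized counts at Nut 0h, 135 and 149 after 1 h and 343 and 384 after 10 h, with no overlap between the conditions. Its rise was 0.93 at Nut 1h, not called with the offset (0.26, adjusted p = 0.206), and 2.29 at Nut 10h (adjusted p = 7.19e-08), or 2.28 with the offset.

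Among the 21 adaptors and kinases that carry the signal, all tested, 10 were called higher and 8 lower at Nut 1h, beside 34.5% and 32.3% of all genes, with a median of -0.07 beside 0.05. With the offset 4 were higher and 6 lower, beside 22.8% and 25.2%, and without the first Nut 1h library 8 were higher and 5 lower. CHUK, a catalytic subunit of the IkB kinase, rose by 0.91 (0.30 with the offset), and TRADD, the adaptor of the TNF receptor, fell by 1.61 (by 0.62 with the offset). TBK1, an IkB kinase relative, rose by 0.86, but not with the offset (0.16, adjusted p = 0.0826). IKBKG, the regulatory subunit of the IkB kinase, fell by 1.32 on the log2 scale. It had no GC value and so no offset, and its reads could be split with a near-identical pseudogene. At Nut 10h, 3 were higher and 3 lower, beside 14.1% and 14.9% of all genes, and with the offset 6 were higher and 4 lower, beside 18.8% and 20.8%. IKBKB, the other catalytic subunit, rose by 0.53 and TAB3, a partner of the upstream kinase, by 1.06, while TRAF2 fell by 0.76 and IRAK1 by 0.52.

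The 7 other Rel and IkB genes were all called at Nut 1h, with 2 higher and 5 lower and a median of -0.87 beside 0.05 for all genes, of which 66.9% were called. With the offset 2 were higher, 3 lower and 2 not called, beside 48.0% of all genes called, and the median was 0.00, as it was for all genes. REL, the third transactivating subunit, rose by 1.50 (0.87 with the offset), and its exons share 5702 bases with a same-strand long non-coding RNA. NFKBIZ, a nuclear IkB, rose by 0.75 (0.54 with the offset). BCL3, a nuclear cofactor, fell by 1.66 (by 0.55 with the offset) and NFKBIE, an inhibitor like NFKBIA, fell by 1.24 (by 0.56 with the offset). At Nut 10h no gene of this list was called higher, beside 14.1%, and 2 were lower, beside 14.9%: NFKBID, by 0.89, and NFKBIB, by 0.48. Without the first Nut 0h library or the second Nut 10h library 1 was lower, and 3 were without the second Nut 0h library, without the first Nut 10h library, without a low-count filter or with the GC-content offset (beside 20.8%).

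The 13 genes of ubiquitin control, all tested, split into 6 higher, 5 lower and 2 not called at Nut 1h, beside 34.5% higher and 32.3% lower among all genes. With the offset 3 were higher and 5 lower, beside 22.8% and 25.2%. XIAP, an inhibitor of caspases, rose by 1.21 (0.60 with the offset) and CYLD, a deubiquitinase that limits the pathway, by 0.88 (0.32 with the offset). SHARPIN, part of the linear ubiquitin ligase, fell by 1.69 (by 0.65 with the offset), and TNIP1, a binding partner of the TNFAIP3 protein, by 1.16 (by 0.59 with the offset). At Nut 10h, 3 were higher, CYLD by 0.50 and TNIP1 by 0.42 among them, and none lower, beside 14.1% and 14.9% of all genes. With the offset 5 were higher and 1 lower, beside 18.8% and 20.8%, and without the first Nut 10h library 2 were lower.

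**Figure D4:**
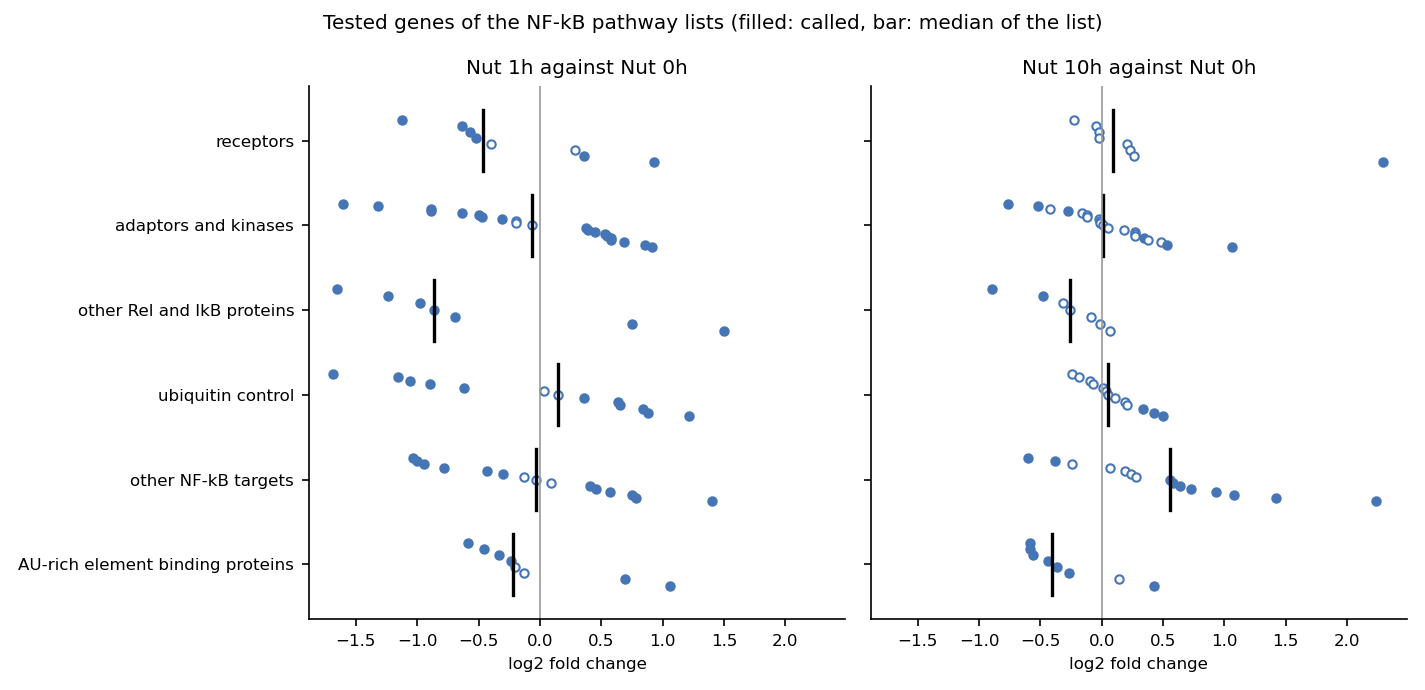
Log2 fold change (horizontal axis) of each tested gene of 6 lists around NF-kB, without the GC-content offset, at Nut 1h and Nut 10h against Nut 0h. Filled points were called and the bar is the list's median: at Nut 1h most genes are called in both directions, while at Nut 10h the other NF-kB targets have a median of 0.56 and the AU-rich element binding proteins one of -0.40. The lists were chosen with earlier results of these data known.

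Of 24 other NF-kB targets, 15 were tested. At Nut 1h, 6 were higher and 6 lower, beside 34.5% and 32.3% of all genes, with a median of -0.03 beside 0.05. With the offset 6 were higher and 2 lower, beside 22.8% and 25.2%. PTGS2, the inducible cyclooxygenase, had 37.7 and 53.5 normalized counts at Nut 0h, 118 and 123 after 1 h and 52.2 and 58.6 after 10 h, highest at Nut 1h as IL8 was. It rose by 1.40 at Nut 1h (0.70 with the offset), and was not called at Nut 10h (0.28). TNFAIP8 rose by 0.78 at Nut 1h and JUNB, a subunit of AP-1, fell by 1.03, but under the offset their values were 0.20 (adjusted p = 0.136) and -0.033 (adjusted p = 0.71). At Nut 10h, 8 of the 15 targets were higher and 2 lower, beside 14.1% higher and 14.9% lower among all tested genes. With the offset 10 were higher and 3 lower, beside 18.8% and 20.8%. Their median log2 fold change was 0.56, beside 0.00 for all genes. This list was chosen with earlier results of these data known, so its difference from all genes is a description. CSF1, the macrophage growth factor, had 232 and 210 normalized counts at Nut 0h, 101 and 121 after 1 h and 652 and 535 after 10 h. It fell by 1.00 at Nut 1h (by 0.41 with the offset) and rose by 1.42 at Nut 10h. SDC4, a cell surface proteoglycan, rose by 1.07 at Nut 10h, whereas GADD45B, a stress-induced growth arrest gene, fell by 0.60 and SOD2, the mitochondrial superoxide dismutase, by 0.38.

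Messenger RNAs of the member chemokines carry AU-rich elements, through which RNA-binding proteins alter their decay. Of 8 such proteins, all tested, 2 were higher and 4 lower at Nut 1h, beside 34.5% and 32.3% of all genes (22.8% and 25.2% with the GC-content offset). Under the offset, without the first Nut 0h library and without either Nut 1h library, 2 were higher and 2 lower. At Nut 10h, 1 was higher and 6 lower with and without the offset, beside 14.1% and 14.9% of all genes (18.8% and 20.8% with it), with a median of -0.40 beside 0.00. These proteins, too, were listed with earlier results of these data known, so these counts are a description. Without the first Nut 0h library 3 were lower, without either Nut 1h library 4, and in these 3 fits none was higher. None was higher either without the second Nut 10h library, where 5 were lower. HNRNPD rose by 0.69 at Nut 1h (0.26 with the offset) and fell by 0.58 at Nut 10h. KHSRP, which promotes decay, fell by 0.58 at Nut 10h, while RC3H1, a repressor of inflammatory transcripts, rose by 1.06 at Nut 1h (0.45 with the offset) and, at Nut 10h, by 0.43. ZC3H12A, an RNase that degrades inflammatory transcripts, fell by 0.58 at Nut 1h, and under the offset its value was 0.15 (adjusted p = 0.228).

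The same limit holds for other named genes whose exons overlap those of an opposite-strand gene, among them LTBR (422 bases shared with SCNN1A), TBK1 (492 bases), JUNB (259 bases shared with HOOK2), HNRNPD (250 bases) and PTGS2 (219 bases).

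The genes with the pattern nearest to that of NFKBIA across the 6 libraries, by the Euclidean distance of log2(CPM + 1) centred on its mean among 11576 genes, were TMEM248 (distance 0.0437), GSTO1 (0.0539), LRRC16A (0.0547), GLYR1 (0.0623) and ANO1 (0.0679). For IL8 they were TMCO1 (0.0898), ACBD5 (0.0909), DCAF13 (0.0927), ASNSD1 (0.0929) and DDX50 (0.107). On this scale the changes of IL8 are compressed, because its CPM values (counts scaled to library size) are low against the pseudocount of 1, so that its neighbours had log2 fold changes between 0.83 and 0.90 at Nut 1h.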

How the data were processed

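RNA-seq of 6 HCT116 libraries was analysed. The authors trimmed paired-end reads with Trim Galore (0.6.6), aligned them to GRCh37.p13 with STAR (2.7.0f) and counted them per gene with featureCounts of Subread (2.0.0), per the methods and the submitters' processing notes. The deposited values are raw read counts per gene, without normalization. Strand setting and treatment of multimapping reads are not given in the sources used here. A deposited table of the authors' own fold changes and p-values was used only to pair gene IDs with symbols.

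From these counts, low genes were removed by filterByExpr and library sizes were scaled by TMM. The quasi-likelihood test of edgeR (version 4.0.16, in R 4.3.3) was fitted to the 6 libraries together with condition alone, and p-values were Benjamini-Hochberg adjusted across every tested gene. Standard errors come from the log2 fold change and its F statistic. The submitters' labels give replicate numbers but do not say that replicates are separate cultures, so the p-values measure the spread between these samples. The GC-content offset is a loess trend (span 0.4) on the GC content of the canonical transcript (the longest where none was marked), from GENCODE lifted to GRCh37. Genes with no GC content received no offset. DESeq2 1.42.0, limma-voom (limma 3.58.1), other scalings, filters and thresholds, a replicate block, length and GC-content offsets and the omission of each library were alternatives. A fit without the mitochondrial genome genes was another. Tests were tried on simulated data.

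Named were the members, RELA, the other CXC genes of the chromosome 4 cluster, MDM2 and CDKN1A, the nearest patterns, and from each list the 2 largest rises and falls against Nut 0h among called genes whose groups did not overlap and whose mean reached 50 normalized counts. The marker genes and all other names were chosen after their values were seen. The members and lists were chosen with earlier results of these data known.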

Additional observations from a re-analysis of the deposited data

Results flagged for a closer look

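For 4 of the 10 members the effect of Nutlin-3a differed between the times in the direct test of Nut 10h against Nut 1h, edgeR's quasi-likelihood test with Benjamini-Hochberg adjustment over all tested genes, beside 67.9% of all tested genes called (58.4% with the GC-content offset). IL8 was lower at Nut 10h by -1.37 ± 0.28 on the log2 scale (adjusted p = 0.000655), and was higher in 2 of 2 libraries at Nut 1h. TNFAIP3 was lower at Nut 10h by -0.54 ± 0.15 (adjusted p = 0.00645). NFKB2 was higher at Nut 10h by 0.77 ± 0.11 (adjusted p = 2.06e-05) and RELB by 1.25 ± 0.15 (adjusted p = 4.75e-06). In each of the 4 genes the libraries of Nut 1h and Nut 10h did not overlap. Since these genes were picked by the call, this adds no support, and the share of all genes without overlap is not given here. With the GC-content offset TNFAIP3 and RELB were still called, whereas IL8 and NFKB2 were not.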

How the results depend on the processing

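Across the alternatives, 621 values of the 10 members were recomputed, of which 586 kept their direction (or were too small to be called) and their side of the threshold, 12 lost the call, 22 gained one and 1 reversed. Of these 35 changes, 25 came with a GC-content offset. At Nut 10h against Nut 0h the count of members called was 1, and it was 2 without a low-count filter, with the GC-content offset, with this offset and the replicate block together, and with an offset by the longest transcript, which was added after seeing the data. In all 4 settings the second gene was NFKB2. Leaving out each library in turn gave 1 to 3 for this comparison: 2 without the second Nut 0h library (NFKB2, -0.36) and 3 without the first Nut 10h library (NFKB2, -0.35, and CXCL1, 1.11). For Nut 10h against Nut 1h it gave 3 to 4, and for Nut 1h against Nut 0h 5 each time. With a minimum absolute log2 fold change of 1, 2 members were called between Nut 10h and Nut 1h, RELB and IL8. With the longest transcript NFKB2 reversed between these times, to -0.028 (adjusted p = 0.745), and NFKB1, whose longest transcript has a far lower GC content than its canonical one, was called at Nut 1h (-0.85, adjusted p = 2.85e-07), as the construction of that offset explains. With the length offset NFKBIA was called at Nut 1h (0.26, adjusted p = 0.0149). The cause of the other changes was not tested. Over all tested genes, 2980 instead of 4810 were called at Nut 10h with an adjusted p of at most 0.01, and the fold minimum left 3974 of 11077, 1135 of 4810 and 4746 of 11246. Deviations of same-numbered libraries correlated at 0.45 between Nut 0h and Nut 10h. The correlation was -0.31 between Nut 0h and Nut 1h and -0.28 between Nut 1h and Nut 10h. Replicate numbers thus did not pair the 3 conditions in the same way, and a shared replicate effect under other numbers was not tested. The replicate block left the counts of members at 5, 1 and 4. With this block, 3 and not 2 of the other Rel and IkB genes and 4 and not 3 adaptors and kinases were lower at Nut 10h. Of the AU-rich element binding proteins, 5 and not 6 were then lower at Nut 10h, and 3 and not 4 at Nut 1h. With at least 1 CPM in 2 libraries CXCL1, CXCL2 and CXCL3 did not enter the test.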

Other observations

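From the 24 other NF-kB targets (ICAM1 and CCL2) and the 9 ligands (IL1A and IL1B), 4 genes with few reads are named here because they were higher at Nut 10h, after their values were seen, with no test of them as a group. Without a filter on low counts, 8 of 23 targets were called higher at Nut 10h, the same number as of the 15 tested with it, and 1 of 7 ligands. Over all genes, 5330 were called in that fit in either direction, against 4810 with the filter. The share of all genes called higher in that fit is not given here, so 8 of 23 and 1 of 7 cannot be set against it. ICAM1, the adhesion molecule that binds leukocytes, had 13 and 12 counts at Nut 0h, 15 and 6 after 1 h and 59 and 60 after 10 h. Its summed counts were 4.74-fold higher at Nut 10h than at Nut 0h (interval of counting error only from 3.06 to 7.62), with an adjusted p of 0.000227 in edgeR's quasi-likelihood test. Exons of ICAM1 share 815 bases with the opposite-strand ICAM4-AS1, whose reads cannot be told apart from its own without the strand setting. IL1B, which encodes interleukin-1 beta, had no count in the 4 libraries of Nut 0h and Nut 1h and 7 and 8 at Nut 10h, at least 4.98-fold higher against a floor of 3 counts over the group. CCL2, a monocyte attractant, likewise had no count in those 4 libraries and 5 and 5 at Nut 10h, at least 3.32-fold higher. IL1A had 1 and 3 counts at Nut 0h, 5 and 5 after 1 h and 9 and 9 after 10 h, a ratio of 4.48 (interval from 1.48 to 18.2). IL1B, CCL2 and IL1A did not pass the filter on low counts and were not tested in the fit that used it.

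Transcripts of the marker lists and CXCL12 are likewise named after their values were seen. ITGAM, an integrin of myeloid cells, had 12 and 14 counts at Nut 0h, 16 and 10 after 1 h and 46 and 40 after 10 h, and was higher at Nut 10h by 1.71 ± 0.35 on the log2 scale (adjusted p = 0.00204), while PTPRC, carried by all leukocytes, had 0 to 2 counts. In the second Nut 10h library COL1A2 had 25 counts and CXCL12 11, against 0 or 1 in the other 5, and DCN had 0 in all 6. The 4 fibroblast markers summed to between 787 and 1405 normalized counts, nearly all of them from COL1A1, and the 2 endothelial markers found in the table, VWF and CDH5, to between 12.0 and 22.2. Their part in the results was not tested.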
